A study of Caenorhabditis elegans with 2 samples.

Results

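The 72 protein-coding *his* genes of *Caenorhabditis elegans* were examined for CEH-22 ChIP-seq regions. They were all the genes named *his-* and a number in the Ensembl annotation of assembly WBcel235 (ce11), out of 19985 protein-coding genes. The profiled animals were whole late embryos of mixed sex of strain OP389, which carries unc-119(tm4063) on chromosome III and the insertion wgIs389, a stably expressed CEH-22 with GFP and FLAG at its C-terminus. Material of whole animals was pooled, so regions cannot be placed in a cell type, and neither the promoter that drives the tagged protein nor what the antibody, given as ceh-22, recognises was stated. There were 2 biological replicates in 1 group and no contrast of conditions, and the control named in the labels was not analysed here. The lists used held 285 thresholded peaks (regions that passed IDR, a reproducibility test between ranked lists), 19644 pooled regions called relaxedly from both replicates, and 30000 relaxed regions per replicate. Read depth is unknown, and no test was made of any share below, since 1 group allows none over samples.

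Histones package DNA into nucleosomes, each with a core of H2A, H2B, H3 and H4, and linker histone H1 binds between them. Core histone genes of the replication-dependent kind are small, intronless, present in many near-identical copies and often arranged as divergent pairs that share a promoter, whereas H3.3 variants replace H3 outside DNA replication. CEH-22 is an NK-2 class homeodomain factor best known for activating muscle genes of the pharynx.

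By RefSeq product names, 70 of the 72 genes encoded a histone, and *his-39* and *his-73* were short genes with a histone fold domain annotation. There were 17 H2A, 16 H2B, 15 H3, 16 H4 and 5 H3.3 or H3.3-like genes, and 1 gene, *his-24*, known as a linker histone H1 gene. Ensembl gave the 72 genes 50 different names, because identical copies share one, and RefSeq gave 72, which are used here. The genes fell into 19 genomic groups with gaps of at most 10000 bp, of which 14 held 2 or more genes and together 67 genes. In 62 genes the promoter was shared by a divergent pair with 5' ends within 1000 bp, which made 31 shared and 10 single promoters, or 41 in all.

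The shared promoters show both the common layout of these genes and how far their copies repeat. Of the 31, 16 were identical to at least 1 other and there were 21 different sequences. The sequences below, from the RefSeq genome of WBcel235, run on the plus strand between the annotated 5' ends of a pair, or through the middle 300 bases where the gap was longer. No annotated untranslated region overlapped them. Capitals mark, on either strand, the TATA box form TATAAA, the stretch CAAGTG (the core of the NK-2 site) and the stretch GGGACACAT, the last pair chosen after the sequences had been read. The first lies at a thresholded peak, the next ones, of *his-61* and *his-62* and of *his-31* and *his-32*, belong to pairs with weaker pooled regions, and the last pair of sequences belong to repeated copies without a region.
his-60 and his-59 (H4 and H3, chrIV:7487993-7488248): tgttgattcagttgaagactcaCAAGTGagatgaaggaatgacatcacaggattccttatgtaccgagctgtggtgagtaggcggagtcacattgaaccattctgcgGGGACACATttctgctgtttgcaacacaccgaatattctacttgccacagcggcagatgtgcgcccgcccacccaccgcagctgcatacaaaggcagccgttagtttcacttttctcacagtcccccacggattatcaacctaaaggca
his-61 and his-62 (H2A and H2B, chrIV:7486232-7486531): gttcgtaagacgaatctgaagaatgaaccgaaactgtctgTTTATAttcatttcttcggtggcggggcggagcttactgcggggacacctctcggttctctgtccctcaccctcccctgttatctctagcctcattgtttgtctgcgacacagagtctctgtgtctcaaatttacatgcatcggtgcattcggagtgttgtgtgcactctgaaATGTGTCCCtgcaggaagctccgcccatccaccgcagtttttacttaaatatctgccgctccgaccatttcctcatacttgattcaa
his-31 and his-32 (H4 and H3, chrIV:8333995-8334294): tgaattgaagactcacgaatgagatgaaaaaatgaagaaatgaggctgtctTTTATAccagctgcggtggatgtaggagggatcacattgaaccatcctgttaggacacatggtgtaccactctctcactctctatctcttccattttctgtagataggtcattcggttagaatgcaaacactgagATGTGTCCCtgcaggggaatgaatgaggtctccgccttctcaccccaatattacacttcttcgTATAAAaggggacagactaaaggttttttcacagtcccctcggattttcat
his-10 and his-9 (H4 and H3, chrII:13823376-13823647): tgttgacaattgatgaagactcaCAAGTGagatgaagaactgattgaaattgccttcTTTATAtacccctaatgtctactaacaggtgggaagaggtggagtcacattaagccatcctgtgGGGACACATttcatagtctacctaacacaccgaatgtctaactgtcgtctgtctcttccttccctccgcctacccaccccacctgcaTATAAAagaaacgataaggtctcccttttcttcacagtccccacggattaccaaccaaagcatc
his-51 and his-52 (H2A and H2B, chrV:8850172-8850463): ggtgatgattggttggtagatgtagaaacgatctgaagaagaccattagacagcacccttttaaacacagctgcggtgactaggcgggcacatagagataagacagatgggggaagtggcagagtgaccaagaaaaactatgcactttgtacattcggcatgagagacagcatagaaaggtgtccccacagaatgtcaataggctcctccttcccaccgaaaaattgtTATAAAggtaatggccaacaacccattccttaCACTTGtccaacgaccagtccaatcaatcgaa

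The *his-10* and *his-9* promoter occurred 3 times without a difference, again between *his-14* and *his-13* and, on the other strand, between *his-25* and *his-26*. The *his-51* and *his-52* promoter occurred 4 times, also at *his-54* and *his-53*, *his-21* and *his-22*, and *his-20* and *his-19*. By contrast, the nearest other shared promoter to that of *his-60* and *his-59* was that of *his-63* and *his-64*, at 85.5% identity. For *his-31* and *his-32* the nearest was only 56.2% identical.

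A region lay at 18 of the 72 *his* genes in the pooled list, or 25%, against 50.7% of all protein-coding genes. A gene was counted when a summit fell between 1000 bp upstream of its 5' end and its 3' end, so long genes had wider windows, and 64 *his* genes were 500 bp or shorter. Among genes of 500 bp or less, a region lay at 12 of 64 *his* genes (18.8%), against 24.1% of the 1177 protein-coding genes of that length. With a window of fixed size, from 1000 bp upstream to 200 bp downstream of the 5' end, the share was 23.6% of *his* genes and 24.6% of all genes. The share at *his* genes was below that of all genes in the first window, below that of short genes where both were short, and near that of all genes where window size was equal. None of these comparisons was matched for repeated sequence, by which shares are given further below. In the lists of single replicates, 23 *his* genes (31.9%) had a region in replicate 1 and 21 (29.2%) in replicate 2, against 64.3% and 65.3% of all genes, and 16 had one in both.

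Thresholded peaks lay at 4 *his* genes, or 5.56%, against 1.14% of all protein-coding genes. All 4 were 500 bp or shorter, and made 6.25% of the 64 *his* genes of that length, against 1.10% of all such genes. In the window of fixed size the shares were 5.56% of *his* genes and 0.746% of all genes. The 4 genes were *his-67*, *his-68*, *his-60* and *his-59*, and they form divergent pairs, so there were 2 peaks at 2 of 41 promoters (4.88%). The same 4 genes were the *his* genes with a region among the 285 strongest of replicate 1, and again among the 285 strongest of replicate 2. The thresholded list equalled the 285 strongest pooled regions, and the pooled list was made from both replicates. This overlap is therefore not separate support for the 2 peaks.

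The strongest region lay between *his-67* (H4) and *his-68* (H2A) on chromosome I (9988794 to 9989137, ce11). It had rank 76 in the pooled list with a signal value of 48.7, a score of the authors' peak caller on a scale that was not stated and is used here within a list, and a −log10 q of 1.82. Its rank was 91 in replicate 1 and 91 in replicate 2. The summit fell in intergenic DNA, 203 bp upstream of *his-67* and 166 bp upstream of *his-68*. It was also 836 bp upstream of *alg-5*, a microRNA Argonaute gene, and a peak at this site cannot be given to 1 of the 3 genes by position. A weak second region had its summit in the coding exon of *his-67* (rank 16587), with a replicate 1 rank of 14890 and no replicate 2 summit within 200 bp.

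The group of *his-59* to *his-62* on chromosome IV (7485834 to 7488659) had a region at each of its 4 genes in the pooled list and in both replicate lists. The thresholded peak between *his-60* (H4) and *his-59* (H3), at 7487904 to 7488247, had rank 217, a signal value of 35.1 and a −log10 q of 1.52. Its replicate ranks were 203 and 267. Its summit lay 84 bp upstream of *his-60* and 173 bp upstream of *his-59*, at base 84 of the sequence printed above. The neighbouring promoter of *his-61* (H2A) and *his-62* (H2B) held a region at 7486261 to 7486604 with rank 567 and a signal value of 25.6, which did not reach the threshold. This region stood at rank 8487 in replicate 1 and 608 in replicate 2, and so ranked far higher in replicate 2. Further regions at this group had summits 709 bp upstream of *his-60* (rank 2435, replicate 2 alone) and 867 bp upstream of *his-59* (rank 14898, replicate 1 alone), the first of them just beyond the 3' end of *his-59*.

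**Figure D1:**
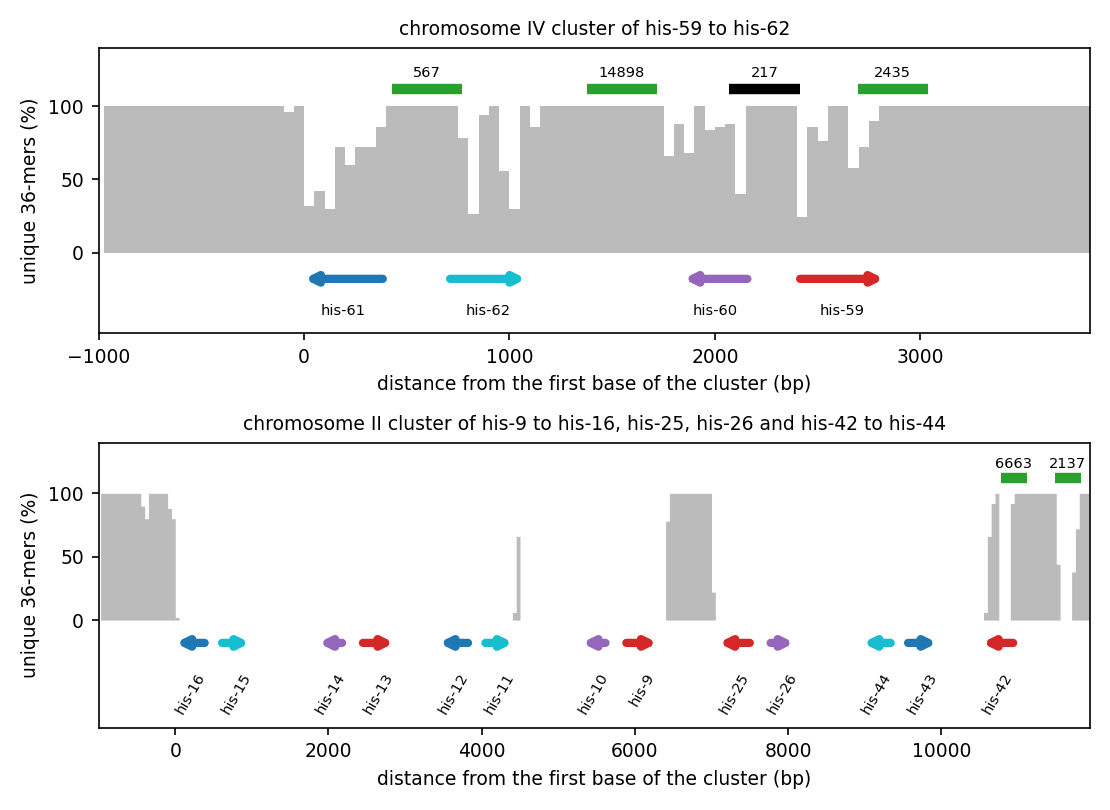
Maps of 2 *his* groups drawn to scale, with distance from the first base of the group in bp on the horizontal axis. Grey shows the share of 36-mers that occur once in the genome in steps of 50 bp, arrows the genes coloured by histone type (H2A dark blue, H2B light blue, H3 red, H4 purple), the black bar the thresholded peak and green bars other pooled regions with their ranks. The upper group has 4 regions over mostly unique sequence, and in the lower group of 13 genes both regions lie beside *his-42*, at its right edge.

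Elsewhere, pooled regions were below the threshold. *his-37*, an H4 gene on chromosome V, had a region with its summit 120 bp upstream (9546813 to 9547156, rank 549, signal value 25.9), with replicate ranks of 1073 and 1840. Its second region, 630 bp upstream (rank 3175), lay in a coding exon of the neighbouring gene *C50F4.6*. In the same group, *his-35* (H2A) and *his-41* (H2B) shared a region in the coding exon of *his-35* (rank 5415), also in the window of *mdf-1*, with rank 3291 in replicate 2 and no replicate 1 summit within 200 bp. The pair *his-31* (H4) and *his-32* (H3) had a region at rank 3492, with its summit 52 bp into *his-32*. The replicate 1 summit there lay 171 bp to the left, between the genes, at rank 403, and that of replicate 2 lay 1 bp from the pooled one at rank 2697. Both replicates thus had a summit at this pair, at different places. *his-2* (H3) and *his-1* (H4) shared a region at rank 6704, whose replicate ranks were 18825 and 24523. *his-64* (H4) had a region 830 bp upstream, beyond the 3' end of its partner *his-63*, at rank 5664, with replicate ranks of 8520 and 19079.

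At the end of the large chromosome II group, *his-42* (H3) was the 1 gene of 13 with pooled regions. The stronger, at rank 2137 with a signal value of 18.1, had its summit 714 bp upstream, inside an annotated copy of the snRNA gene *C47F8.9*. Its replicate ranks were 29388 and 1434, and 35.2% of the 36-base words (36-mers) of the region occurred once in the genome. The other, 9 bp upstream of *his-42*, had rank 6663, with rank 3784 in replicate 2 and no replicate 1 summit within 200 bp. Short RNA genes lay within 200 bp of 2 of the 21 regions, and their part in the signal was not tested.

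Genes outside the replication-dependent arrays had regions in several cases but no thresholded peak. *his-72*, which encodes H3.3, held 4 regions on chromosome III (gene span 12367475 to 12369050), at ranks 855, 1489, 2679 and 15275. The first had its summit at the 3' end, in an annotated untranslated exon 1574 bp downstream of the 5' end, with replicate ranks of 1565 and 5027. The second lay in an intron near the snoRNA gene *Y49E10.36*, at rank 10644 in replicate 1 and 335 in replicate 2. The next, 105 bp downstream of the 5' end, was found in replicate 1 (rank 712) and not within 200 bp in replicate 2. The weakest, in a coding exon, shared its replicate 2 region with the first. The summits at 1574, 1367 and 743 bp also lay in the window of the neighbouring gene *Y75B8A.33*.

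*his-71*, which also encodes H3.3, had 1 region 519 bp upstream at rank 14590, with rank 24253 in replicate 2 and none in replicate 1. *his-24*, the linker histone H1 gene on the X chromosome, had regions inside the gene (735 bp downstream of the 5' end, rank 2750, replicate ranks 3018 and 13036) and at its 5' end (14 bp upstream, rank 3688, replicate ranks 13443 and 15743). The H3.3-like genes *his-69*, *his-70* and *his-74* and the short gene *his-73* had no pooled region. Of these, *his-69* had a region in replicate 2, at rank 20351.

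Counted once each, the pooled list held 21 regions at *his* genes. The 19 below the threshold had −log10 q values of 0.0281 to 0.787 in the pooled list, lower than the 1.52 and 1.82 of the thresholded peaks. Over the 21 regions −log10 q fell with the signal value, and the thresholded list equalled the 285 strongest pooled regions. The lower values of the 19 thus follow from that selection and are not separate evidence. Of the 21 regions, 13 (61.9%) had a summit within 200 bp in both replicates, against 35.4% of all pooled regions, 3 in replicate 1 alone and 5 in replicate 2 alone. These shares were not matched for rank, and the *his* regions were the stronger in the median. The median rank was 3175 over the 21 regions and 9822.5 over all pooled regions, with median signal values of 16.5 and 12. For genes, the median rank of the strongest region was 2443.5 over the 18 *his* genes and 7606.5 over the 10132 protein-coding genes with one, but the 18 genes shared 12 promoters. By protein-coding gene models, summits lay in intergenic DNA in 11 regions, coding exons in 7 (6 of them of *his* genes), introns in 2 and an untranslated exon in 1. In 3 regions the summit was between the 5' ends of a divergent pair, and those were the regions of *his-67* and *his-68*, *his-60* and *his-59*, and *his-61* and *his-62*.

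**Figure D2:**
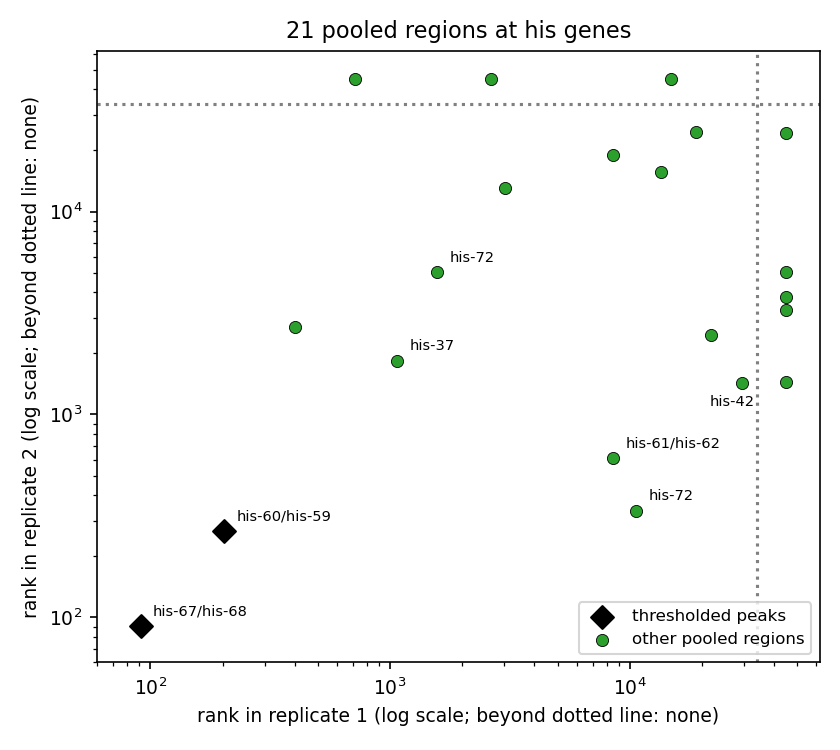
Ranks of the 21 pooled *his* regions in the relaxed lists of replicate 1 (horizontal) and replicate 2 (vertical), both on log scales, with points beyond the dotted lines having no summit within 200 bp in that replicate. The 2 thresholded peaks (black diamonds, ranks 91 and 91, and 203 and 267) lie near equal ranks, and most other regions rank far apart. The thresholded list equalled the 285 strongest pooled regions, and the pooled list was made from both replicates. High ranks in both replicates are therefore not separate support for the 2 peaks, and the reason for the near-equal ranks was not tested.

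Pooled regions lay mostly at *his* genes with unique sequence. A gene window (from 1000 bp upstream to the 3' end) was described by the share of its 36-mers that occur once in the genome on either strand. No source used here gave the read length or the treatment of reads with several matches, and reads from identical copies cannot be told apart by sequence. The median share was 23.4% over the 72 *his* genes and 99.8% over all protein-coding genes. It was 87.0% (49.8% to 100%) in the 18 *his* genes with a pooled region and 8.23% (0% to 100%) in the 54 without.

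Among the 42 *his* genes with under 50% unique 36-mers, 1 had a pooled region (2.38%), which was *his-64* at 49.8%. Among the 30 with 50% or more it was 17 (56.7%). In all protein-coding genes the shares were 33 of 537 (6.15%) and 10099 of 19448 (51.9%). Among genes of 500 bp or less with 50% or more, 11 of 23 *his* genes (47.8%) had a pooled region. Of all protein-coding genes of that length and class it was 280 of 1054 (26.6%). Here the *his* share was the higher, but most of these *his* genes were divergent pairs counted through a shared region. Of the 19 *his* genes without any unique 36-mer, 0 had a region in any list, and this was also so for all 144 such protein-coding genes. At 90% or more unique sequence, 8 of 10 *his* genes had a pooled region, against 54.0% of all genes, and here too pairs shared regions. Only 3 of those 10 were 500 bp or shorter, and 2 of the 3 had one, against 29.2% of all genes of that length. By promoter, 11 of 19 had a region where each gene's window was 50% unique or more, and 1 of 22 elsewhere. The classes at 50% and 90% were set after the values had been seen, and the part of repeated sequence in the missing regions was not tested.

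**Figure D3:**
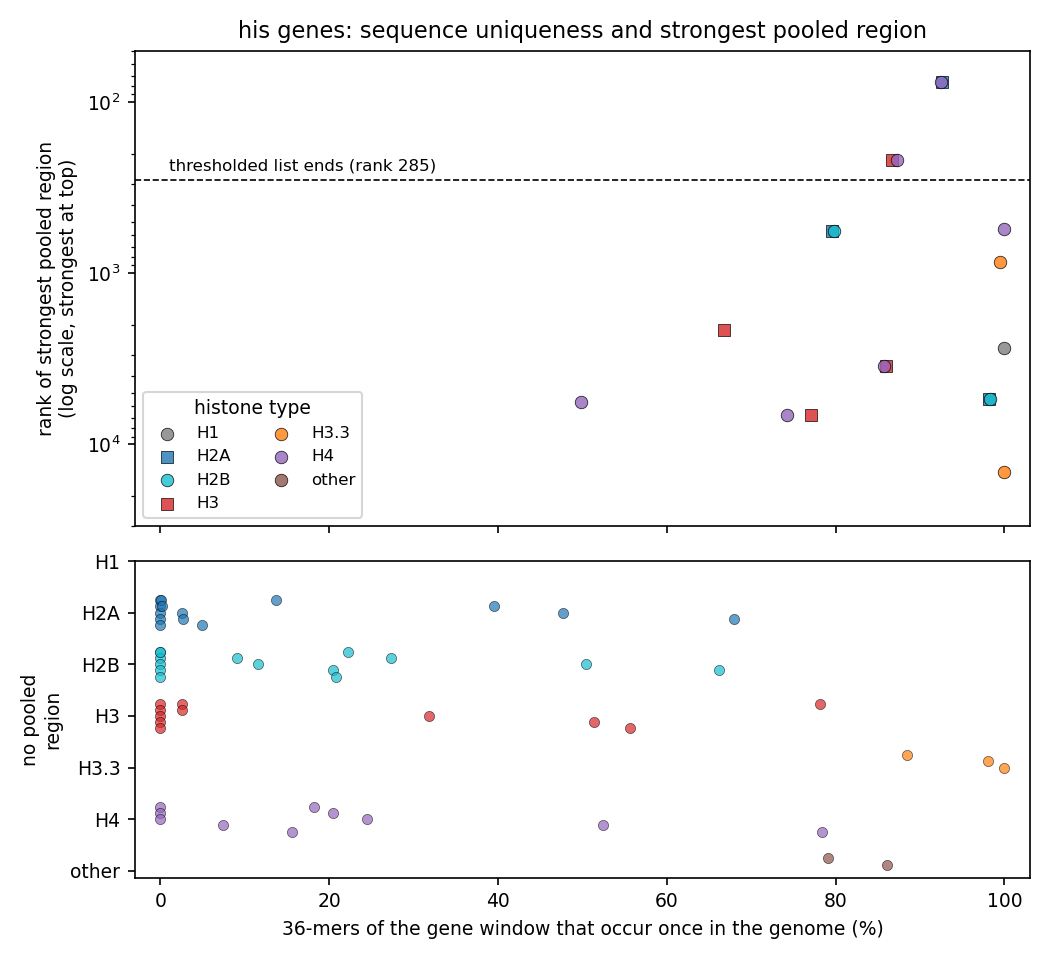
Each of the 72 *his* genes by the share of unique 36-mers in its window (horizontal, %), coloured by histone type, with "other" for *his-39* and *his-73*. The upper panel gives the rank of the strongest pooled region on a log axis with the strongest at the top for 18 genes, where members of a pair overlap, and the lower panel the 54 genes without one, spread vertically for sight. Points in the upper panel begin at 49.8%, and genes without a region crowd at 0%.

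**Figure D4:**
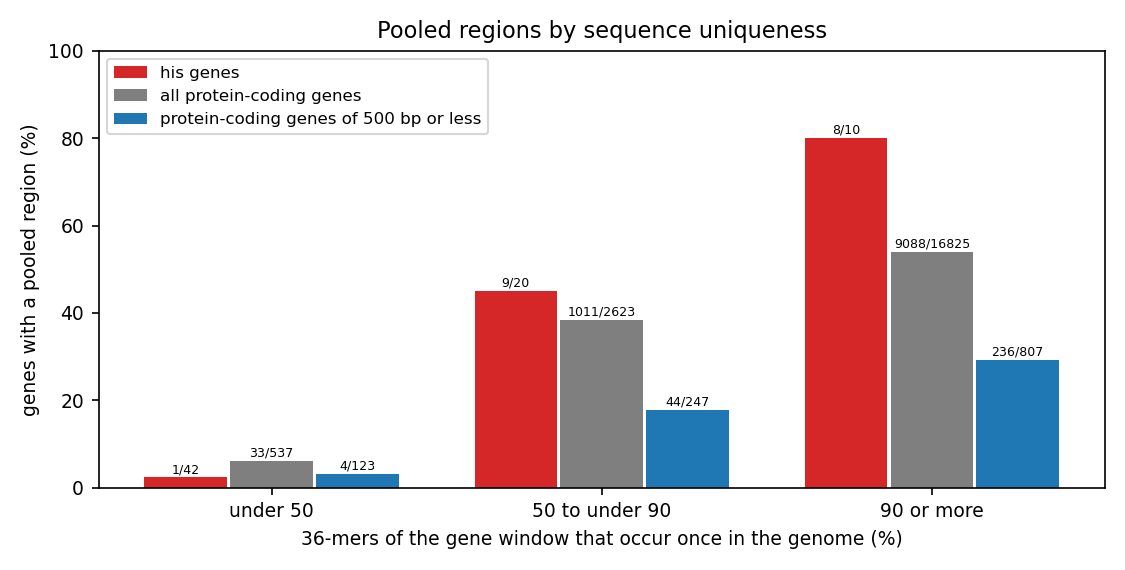
Share of genes with a pooled region (vertical, %) by the share of unique 36-mers in the gene window, for *his* genes of every length (red, not matched in length to the blue), all protein-coding genes (grey) and protein-coding genes of 500 bp or less (blue), with counts above the bars. Under 50% unique sequence the bars stand at 2.38%, 6.15% and 3.25%, and at 90% or more at 80%, 54.0% and 29.2%. Both genes of a divergent pair are counted where they share a region.

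The shared promoters themselves fell into separate classes. In 20 of the 31 the share of unique 36-mers between the 5' ends was 0% to 14.0%, and 0 of these pairs had a pooled region in either window. In the other 11 it was 80.5% to 100%, and 7 pairs had one in a window. Only 3 of these pairs had a pooled summit between the 5' ends: *his-67* and *his-68*, *his-60* and *his-59*, and *his-61* and *his-62*. In the rest the pooled summit lay in a coding exon or, for *his-64*, beyond the 3' end of *his-63*. The 4 pairs with unique promoters and no pooled region were *his-8* and *his-7*, *his-6* and *his-5*, *his-4* and *his-3*, and *his-38* and *his-40*. Of these, *his-38* and *his-40* on the X chromosome had a promoter of 100% unique 36-mers and a shared region in replicate 2 at rank 14834, while *his-40* also had one in replicate 1 at rank 17839. Unique sequence did not always come with a pooled region.

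Of the 19 groups, 6 had no region in any list, of which 4 were arrays and the others were the single genes *his-73* and *his-74*, with 86.1% and 100% unique 36-mers. The 6 genes from *his-50* to *his-53* (chromosome V, 8847393 to 8854053) had windows with 0% unique 36-mers, and none of the 6 had a region in any list. The 8 genes from *his-28* to *his-18* (8889488 to 8898539) had a median of 0% and a highest value of 31.8%, and likewise no region. The groups of *his-45* to *his-48* and of *his-55* to *his-58* on chromosome IV had medians of 13.6% and 20.4% and no region. In all, 44 of 72 *his* genes (61.1%) had no region in any list, against 18.3% of all protein-coding genes. Among genes of 500 bp or less it was 42 of 64 *his* genes (65.6%), against 48.5% of all such genes. These shares were not matched for repeated sequence. Among genes of that length with 50% or more unique 36-mers, the direction was the other. There 20 of 23 *his* genes had a region in some list, against 599 of 1054 of all such genes, with genes of a pair counted each. Apart from the 44, 10 *his* genes had a region in a replicate list but not in the pooled list. Those found in replicate 1 ranked between 17839 and 25488 there, and those found in replicate 2 between 14834 and 20351. Of the 10, only *his-40* had a region in both replicates.

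By histone type, pooled regions lay at 6 of 16 H4 (37.5%), 4 of 15 H3 (26.7%), 3 of 17 H2A (17.6%) and 2 of 16 H2B genes (12.5%). They also lay at 2 of 5 H3.3 genes (40.0%) and at the H1 gene. Of all protein-coding genes 50.7% had one, and of those of 500 bp or less 24.1%. The counts by type are small, and genes of a pair often shared a region. The median share of unique 36-mers was 37.2% in H4, 31.8% in H3, 2.67% in H2A and 16% in H2B genes and 99.5% in H3.3 genes. Types thus differed in uniqueness as well as in counts, and the order of these types differed between the measures only in H2A and H2B. Among shared promoters, 4 of 14 between H3 and H4 and 2 of 16 between H2A and H2B had a pooled region in a window, as did the 1 between H2A and H4. These promoter counts were not matched for unique sequence.

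The NK-2 site, TCAAGTG or TTAAGTG on either strand, lay within 100 bp of the summit in 1 of 21 regions (4.76%), against 6.06% of all pooled regions, and in neither thresholded peak. With 1 site among 21 regions this share is near that of all regions. The same 4.76% stood against 3.28% of all pooled regions within 50 bp and against 10.8% within 200 bp, so which share was higher turned with the distance. That 1 site was in the 5' region of *his-24*, centred 25 bp downstream of the summit and just inside the annotated gene, and it is shown in capitals within its context.
his-24 (chrX:14490092-14490118, plus strand): tcatcactttTCAAGTGtcacccaacc

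None of the 31 shared promoters held the site. In the 250 bp upstream of the 5' end it occurred at 1 of 72 *his* genes, *his-74*, which had no region, and at 5.24% of 19973 nuclear protein-coding genes. The core CAAGTG, which is part of the site TCAAGTG, was searched after the sequences had been read. It was within 100 bp of the summit in 2 of 21 regions (9.52%), against 11.3% of all pooled regions. In the 250 bp upstream it occurred at 43 *his* genes (59.7%), against 10.2% of all genes, and in 24 of the 31 shared promoters, most of which had no region. In the printed sequence of *his-60* and *his-59* the core lies close to the 5' end of *his-60*, within 100 bp of the thresholded peak's summit. The same core stands at the same end of the repeated *his-10* and *his-9* promoter.

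Other sequence elements marked the *his* promoters whether or not a region was found there. TATAAA, the form of the TATA box searched, was in the 250 bp upstream of 47 *his* genes (65.3%), against 35.2% of all genes, and in 24 of 31 shared promoters. GGGACACAT, a stretch noticed in the printed sequences, was upstream of 42 *his* genes (58.3%) out of 69 genes in the whole genome (0.345%), and in 20 of 31 shared promoters. Here too a site can count for both genes of a pair. Over the 41 promoters, which still include identical copies, the shares were 68.3% for TATAAA and 53.7% for GGGACACAT. TATAAA was not in the *his-60* and *his-59* promoter, the one printed with a thresholded peak, and GGGACACAT was.

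Histone supply genes, a list of 25 linker histones, histone variants, chaperones and processing factors, were counted in the same way. Of these, 21 (84.0%) had a pooled region and 2 (8%) a thresholded peak, against 50.7% and 1.14% of all protein-coding genes. The list was chosen with earlier results of these data known, and the shares were not matched for gene length, so they are no test. The shortest of the 25 was *hil-7* at 661 bp, so their windows were wider than those of most *his* genes. *hil-7*, a linker histone H1-like gene on chromosome IV, had the strongest, at rank 47 with a signal value of 57.7, its summit 81 bp upstream and replicate ranks of 67 and 45. *htz-1*, which encodes the variant H2A.Z, had rank 244 with a signal value of 33.7, 262 bp upstream, with replicate ranks of 337 and 790. The next was *nap-1*, a nucleosome assembly protein gene, at rank 1040 and below the threshold.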

How the data were processed

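CEH-22 ChIP-seq of 2 biological replicates was available as region lists. Per the deposited file listings, the alignments of each replicate, or of both, and of a control gave the relaxed lists, from which IDR gave the thresholded one. No source used here named the aligner, the peak caller or a version. Each region's signal value is a score that the authors deposited without a stated scale, and was used to rank regions within a list. The deposited −log10 q values are quoted from the pooled list. The thresholded list equalled the 285 strongest pooled regions. Lists on ce10 were not used, since no annotation of that build was at hand.

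Members, lists and tests were chosen with earlier results of these data known. Genes came from Ensembl release 115 and names, products and sequence from RefSeq, both on WBcel235, coordinates 1-based. Summits were assigned to windows from 1000 bp upstream to the 3' end. A replicate matched within 200 bp, by its strongest region there. Uniqueness was counted for 36-mers (50-mers as an alternative) with numpy 2.4.6. Assignment and uniqueness code was tested on simulated data. Shared promoters were aligned with Biopython 1.88. Named genes were those with a thresholded peak, at the 20 strongest *his* regions, strongest in their group, outside arrays, and the supply genes with a thresholded peak or among the 3 strongest; genes without regions were named after their values were seen.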

Additional observations from a re-analysis of the deposited data

How the results depend on the processing

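The counts of 18 *his* genes with a pooled region and 4 with a thresholded peak were within 1.5 times of these values under upstream limits of 500 and 2000 bp, a window that ended 200 bp downstream, and any overlap in place of the summit. With the gene span alone, which leaves out the upstream part, the counts were 6 (8.33%) and 0. Of all protein-coding genes, 39.3% and 0.450% had one in that setting. The reason for the lower counts was not tested. With the stronger 50% of each list, 17 genes had a pooled region and 2 a thresholded peak, *his-67* and *his-68*. Without 1 replicate, the counts were 21 to 23 for relaxed regions and 4 for the 285 strongest. The median rank of the strongest region was 855 with a 500 bp upstream limit, which left 15 genes. The core CAAGTG alone, chosen after seeing the data, was in 9.52% of *his* regions. Other distances for shared summits and divergent pairs, other flanks for the NK-2 site and 50-mers kept the *his* values within 1.5 times, while the NK-2 share of all regions was 3.28% at 50 bp and 10.8% at 200 bp. No paired analysis was possible because there was 1 group. Depth is unknown, so a missing region does not show that binding was absent.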
